A study of Mus musculus with 2 samples.

Results

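Basal cells of the mouse mammary gland that carried at least 2 UMIs (unique molecular identifiers, 1 per captured RNA molecule) of Igfbp3 were examined in late pregnancy. They were chosen by their measured UMIs, in several steps, so their Igfbp3 level and the genes of the rule are a description and not a finding. Barcodes needed at least 1000 UMIs, at least 500 genes and at most 20% mitochondrial UMIs. The summed UMIs of the basal genes Krt14, Krt5, Krt17, Acta2, Myh11 and Mylk had to be at least 5 and above those of the luminal genes Krt8, Krt18, Krt7, Krt19, Cldn3 and Cldn4. Cells with 3 or more UMIs over the proliferation genes Birc5, Ccnb1, Cdk1, Cenpf, Mki67, Nusap1, Top2a and Ube2c were left out. Of 18533 barcodes, 15772 passed the first step and 11602 were non-cycling basal cells. Of these, 2028 were Igfbp3-positive, 1377 in the knockout library and 651 in the wild type library. The other 9574 non-cycling basal cells, 4006 knockout and 5568 wild type, served as the comparison.

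The knockout library came from mice labelled EhfKO, a knockout of Ehf, an ETS family transcription factor of epithelia, and the wild type library from mice labelled WT. Both came from adult females at 18.5 days of pregnancy, and each pooled the glands of 2 females, so the design has 1 library per genotype. The glands were digested to single cells and sorted by flow cytometry as negative for markers of blood and endothelial cells (CD31, CD45 and Ter119). The deleted stretch of Ehf is not stated in the labels. Ehf was scarce in basal cells and does not check the labels here: with all UMIs, Igfbp3-positive cells held 21 Ehf UMIs in each library, at 2.79 CPM (UMIs of a gene per 1000000 UMIs) in knockout and 10.8 CPM in wild type cells, and a 3′ tag outside the deleted stretch would still be counted. With 1 library per genotype there is no replicate error, no test was made and no p-value is given, and intervals are 95% intervals of counting error alone.

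The basal layer of the mammary gland consists largely of myoepithelial cells, which contract in response to oxytocin and eject milk. They carry smooth muscle proteins such as Acta2 together with the keratins Krt5, Krt14 and Krt17. Igfbp3 encodes a secreted protein that binds insulin-like growth factors (IGFs), holds them away from their receptor Igf1r, and also acts on cells apart from IGFs. Its gene lies at chr11:7206086-7215498 on the mouse assembly GRCm38.

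The deposited barcodes held 40066795 UMIs in the knockout library and 48720938 in the wild type library. Knockout basal cells were deeper than wild type ones. Igfbp3-positive cells had a median of 4335 UMIs in the knockout library, against 3495 in the other basal cells there. In the wild type library these medians were 2380 and 2013. Depth thus moved with the rule, and every cell was thinned at random to 1000 UMIs before levels were compared, and levels are given in CPM of the thinned UMIs. At that depth the Igfbp3-positive cells had a median of 621 genes in knockout and 611 in wild type cells, against 616 and 605 in the other basal cells. The libraries shared 25 barcodes. Of these, 4 were Igfbp3-positive in the knockout library, 3 were Igfbp3-positive in the wild type library, and 0 were so in both.

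The promoter windows of Igfbp3 and of the 4 genes that were at least 1.5-fold higher beside it in both libraries, by thinned counts and with each cell given equal weight, are shown because they are the genes the comparison turns on. Each window covers 250 bases before and 50 after a RefSeq transcript start (GRCm38.p6, all on the minus strand and printed 5′ to 3′ along the gene), with motif matches in capitals. They lie at chr11:7213874-7214173 for Igfbp3, chr2:164356458-164356757 for Slpi, chr12:84876442-84876741 for Ltbp2, chr19:20390622-20390921 for Anxa1 and chr16:85803064-85803363 for Adamts1. The Igfbp3 window lies inside the annotated span of the gene given above.
Igfbp3: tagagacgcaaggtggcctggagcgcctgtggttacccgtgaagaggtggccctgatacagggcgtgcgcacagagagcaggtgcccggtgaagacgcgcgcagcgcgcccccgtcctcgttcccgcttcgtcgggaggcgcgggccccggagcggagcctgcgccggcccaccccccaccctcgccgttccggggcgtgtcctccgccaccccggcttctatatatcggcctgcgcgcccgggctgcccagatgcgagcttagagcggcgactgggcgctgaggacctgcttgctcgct
Slpi: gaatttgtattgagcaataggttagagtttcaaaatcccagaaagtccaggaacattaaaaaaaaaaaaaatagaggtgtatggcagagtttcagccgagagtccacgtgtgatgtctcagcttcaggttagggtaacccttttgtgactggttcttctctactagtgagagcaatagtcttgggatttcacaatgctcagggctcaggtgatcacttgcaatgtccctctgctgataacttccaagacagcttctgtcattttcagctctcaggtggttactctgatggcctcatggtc
Ltbp2: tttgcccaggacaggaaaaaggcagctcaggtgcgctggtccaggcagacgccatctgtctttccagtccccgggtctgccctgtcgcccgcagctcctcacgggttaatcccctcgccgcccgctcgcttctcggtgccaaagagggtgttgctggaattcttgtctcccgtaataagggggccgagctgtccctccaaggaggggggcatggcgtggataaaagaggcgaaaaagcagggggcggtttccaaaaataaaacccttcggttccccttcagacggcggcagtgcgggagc
Anxa1: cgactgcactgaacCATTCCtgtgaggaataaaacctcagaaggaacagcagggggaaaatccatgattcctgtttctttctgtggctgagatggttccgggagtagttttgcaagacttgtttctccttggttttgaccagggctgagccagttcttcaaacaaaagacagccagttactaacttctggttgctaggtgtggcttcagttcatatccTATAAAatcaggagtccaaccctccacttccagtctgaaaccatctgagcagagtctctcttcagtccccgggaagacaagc
Adamts1: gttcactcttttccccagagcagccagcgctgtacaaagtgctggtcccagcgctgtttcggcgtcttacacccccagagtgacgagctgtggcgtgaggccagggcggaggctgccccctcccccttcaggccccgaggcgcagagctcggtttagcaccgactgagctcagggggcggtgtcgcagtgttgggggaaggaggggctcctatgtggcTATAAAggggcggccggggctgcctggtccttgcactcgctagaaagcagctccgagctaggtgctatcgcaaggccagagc
Both strands were searched for 4 motifs, and no matches of different motifs overlapped. AP-1 was searched as TGANTCA, TEAD as CATTCC, the ETS core as AGGAAG and the TATA box as TATAAA. The Anxa1 and Adamts1 windows each held TATAAA with its first base at position -32 from the start. These letters were in 13.6% of all 32851 RefSeq windows of this length, on either strand and at any place. Anxa1 also held CATTCC at position -236, letters present in 14.7% of all windows. AP-1 letters, in 7.81% of all windows, and ETS letters, in 35.4%, were in none of the 5. These matches describe letters in a window and not sites of binding.

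The number of Igfbp3-positive cells differed between the libraries mainly at full depth. They made up 25.6% (24.4 to 26.8, exact binomial) of non-cycling basal cells in the knockout library and 10.5% (9.72 to 11.3) in the wild type library. After every cell was thinned to 2000 UMIs, cells with at least 2 Igfbp3 UMIs were 11.5% (10.6 to 12.4) in knockout and 7.85% (6.95 to 8.82) in wild type cells. This left out 191 knockout and 2933 wild type cells that were too shallow. At 1000 UMIs the shares were 4.55% (4.01 to 5.14) in knockout and 3.28% (2.85 to 3.75) in wild type cells. The knockout share was higher at each depth, by a smaller amount in the thinned cells. Over all non-cycling basal cells, the Igfbp3 level was 255 CPM (242 to 269) in the knockout library and 211 CPM (200 to 223) in the wild type library, a log2 ratio of 0.27 (0.16 to 0.38).

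**Figure D1:**
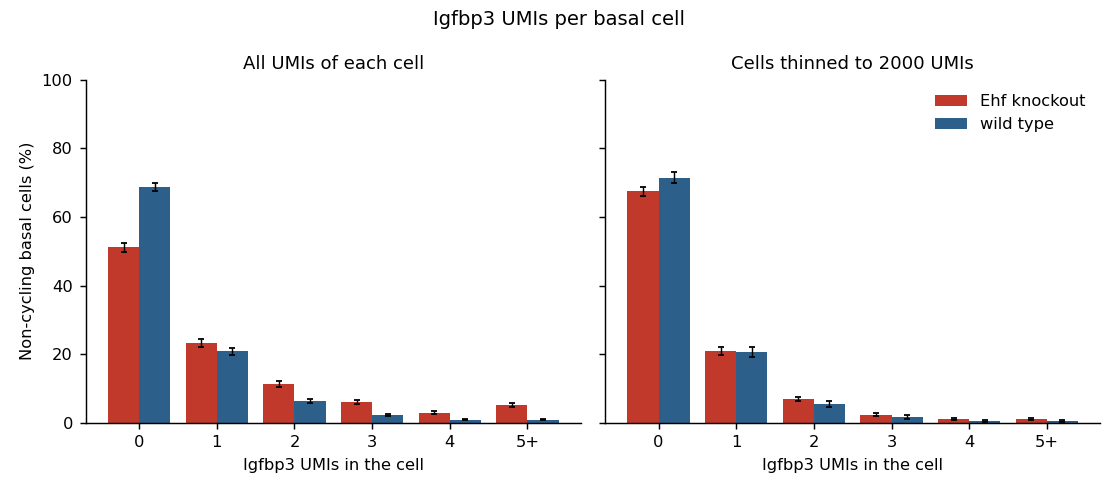
Share of non-cycling basal cells (y axis, percent) by the number of Igfbp3 UMIs in the cell (x axis), with all UMIs (left) and after thinning to 2000 UMIs (right), knockout bars left of wild type; lines are exact 95% binomial intervals. The counts fall off without a second peak, and the gap between the libraries is smaller after thinning.

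Igfbp3 counts fell off without a second peak. They are the UMIs that the rule used, and at this depth their shape does not show whether a separate population exists. In the knockout library 2752 cells had 0 Igfbp3 UMIs, 1254 had 1, 611 had 2, 489 had 3 to 4 and 277 had 5 or more. In the wild type library these numbers were 4275, 1293, 393, 201 and 57. The cells just inside the rule, with 2 UMIs, and those just outside it, with 1, had close depths. Their medians were 4040 and 3739 UMIs in the knockout library, and 2256 and 2174 in the wild type library. Members had a median of 3 Igfbp3 UMIs and at most 31 in the knockout, and a median of 2 and at most 10 in the wild type library. At full depth, 0.530% (0.109 to 1.54) of 566 knockout and 0.351% (0.141 to 0.721) of 1996 wild type non-cycling luminal cells had at least 2 Igfbp3 UMIs, although luminal cells were deeper, with medians of 7754 UMIs in knockout and 8421 in wild type cells.

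The label Krt17-rich held in part, and the other given markers differed less or not in both libraries. Krt17, a keratin of basal cells that is induced by stress and injury in skin, averaged 672 CPM in Igfbp3-positive and 515 CPM in other knockout cells, a log2 ratio of 0.38 (0.27 to 0.50). In wild type cells it was 705 CPM in Igfbp3-positive and 502 CPM in other cells, a log2 ratio of 0.49 (0.34 to 0.63). Krt17 is itself 1 of the 6 basal genes of the rule, which both groups had to pass alike. Its difference stayed under 1.5-fold, and 40.8% of Igfbp3-positive knockout cells had a Krt17 UMI after thinning, against 34.0% of the other knockout cells. In the wild type library these shares were 39.9% and 33.5%. Luminal cells had to hold fewer UMIs of the 6 basal genes, Krt17 among them, than of the luminal genes. Their share with Krt17 was 2.12% in knockout and 0.401% in wild type cells, a description and not a check.

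Bdnf, a neurotrophin, had a log2 ratio of Igfbp3-positive over other cells of 0.06 (-0.17 to 0.29) in knockout and 0.17 (-0.16 to 0.47) in wild type cells. Fst, the secreted activin antagonist follistatin, had 0.08 (-0.07 to 0.23) in knockout and 0.33 (0.10 to 0.55) in wild type cells. Cxcl14, a chemokine of epithelia, had -0.06 (-0.17 to 0.04) in knockout and 0.00 (-0.12 to 0.12) in wild type cells. The intervals of Bdnf and Cxcl14 thus spanned 0 in both libraries, and that of Fst in the knockout library. Between cells with 3 or more and cells with 0 Igfbp3 UMIs, each cell with equal weight, Bdnf had 0.31 in knockout and 0.32 in wild type cells, Fst 0.013 and 0.14, and Cxcl14 0.11 and 0.13. The cells are called Igfbp3-positive basal cells here. They carried the basal keratin Krt14 at 1922 CPM in knockout and 1762 CPM in wild type cells, against 1890 and 1766 CPM in the other basal cells, and Krt5 at log2 ratios of 0.06 (-0.05 to 0.17) in knockout and 0.09 (-0.04 to 0.21) in wild type cells.

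Few genes stood out in Igfbp3-positive cells. Of 5378 genes with a mean level of at least 20 CPM, 9 were at least 1.5-fold higher than in other basal cells in both libraries, a background of 0.167%, and Igfbp3 itself was 1 of them. Another 8 were at least 1.5-fold lower in both, or 0.149%. In a single library more genes passed this fold, 1.13% higher and 1.3% lower in knockout and 3.14% higher and 3.16% lower in wild type cells, which had fewer cells. Across all tested genes the median log2 ratio was 0.02 in knockout and 0.03 in wild type cells.

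Slpi, a secreted inhibitor of leukocyte serine proteases, was higher in Igfbp3-positive cells of both libraries. It averaged 101 CPM in Igfbp3-positive and 46.9 CPM in other knockout cells, a log2 ratio of 1.10 (0.78 to 1.43). In the wild type library it averaged 52.2 CPM in Igfbp3-positive and 26.9 CPM in other cells, a log2 ratio of 0.96 (0.37 to 1.5). Few cells carried it. With all UMIs, 171 of 1377 Igfbp3-positive knockout cells held its 605 UMIs, and 43 of 651 wild type ones held its 101 UMIs, 21 of them in 1 cell. With the cell of highest level left out of each group, and each cell given equal weight, the log2 ratios were 1.32 in knockout and 0.89 in wild type cells. Slpi was also present in luminal cells, at 350 CPM in knockout and 48.1 CPM in wild type cells. The summed luminal marker list of 22 genes was lower in Igfbp3-positive than in other basal cells, at 1656 and 2122 CPM in knockout and 2784 and 4084 CPM in wild type cells with all UMIs. Wfdc18, also in the milk protein list, gave 1420 of 12465 of these UMIs in Igfbp3-positive and 8126 of 33697 in other knockout cells. In the wild type library it gave 1770 of 5412 and 27439 of 56604. Of the 7 tested genes of the luminal list, 2 were above 0 and 3 below 0 in both libraries, against 31.4% and 22.8% of all genes. The part of luminal RNA in the Slpi difference was not tested.

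Ltbp2, a matrix protein of the latent TGF-beta binding family, averaged 53.01 CPM in Igfbp3-positive and 23.0 CPM in other knockout cells, a log2 ratio of 1.21 (0.74 to 1.67). In the wild type library it averaged 33.8 CPM in Igfbp3-positive and 22.1 CPM in other cells, a log2 ratio of 0.61 (-0.11 to 1.28). The wild type interval spanned 0, on 22 thinned UMIs in Igfbp3-positive cells. In luminal cells Ltbp2 was at 3.53 CPM in knockout and 2.51 CPM in wild type cells, and its level in other cell types was not measured.

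Anxa1, a phospholipid-binding protein that mediates glucocorticoid effects on inflammation, averaged 36.3 CPM in Igfbp3-positive and 23.0 CPM in other knockout cells, a log2 ratio of 0.66 (0.13 to 1.17). Its wild type averages were 55.3 CPM in Igfbp3-positive and 29.1 CPM in other cells, a log2 ratio of 0.93 (0.36 to 1.45). Anxa1 was also found in luminal cells, at 143 CPM in knockout and 54.1 CPM in wild type ones. Adamts1, a secreted metalloprotease that cleaves proteoglycans of the matrix, was the most abundant of these genes. It averaged 246 CPM in Igfbp3-positive and 158 CPM in other knockout cells, a log2 ratio of 0.64 (0.44 to 0.83). In wild type cells it averaged 309 CPM in Igfbp3-positive and 187 CPM in other cells, a log2 ratio of 0.72 (0.50 to 0.94).

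The other 4 genes that passed the fold upward were Chuk, a kinase of the NF-kappaB pathway, Myof, a membrane repair protein, Bmp7, a secreted ligand of the BMP family, and Tia1, an RNA-binding protein. They fell short of it without the random draw of UMIs. With each cell given equal weight in place of thinning, Chuk had log2 ratios of 0.12 and 0.46, Myof 0.12 and 0.38, Bmp7 0.33 and 0.11, and Tia1 0.30 and 0.40 in knockout and wild type cells, all under 1.5-fold. By the same measure Slpi had 1.3 and 1.03, Ltbp2 1.04 and 0.92, Anxa1 0.72 and 0.66, and Adamts1 0.61 and 0.68 in knockout and wild type cells. With all UMIs and no thinning, Slpi had 0.95 and 1.07 and Ltbp2 1.06 and 0.93, but Anxa1, at 0.56 and 0.52, fell short of 1.5-fold in both libraries, and Adamts1, at 0.52 and 0.65, in the knockout library. The measure of equal weight, chosen after the data were seen, called 5 genes higher in both libraries that the thinned counts also called, Igfbp3 among them.

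**Figure D2:**
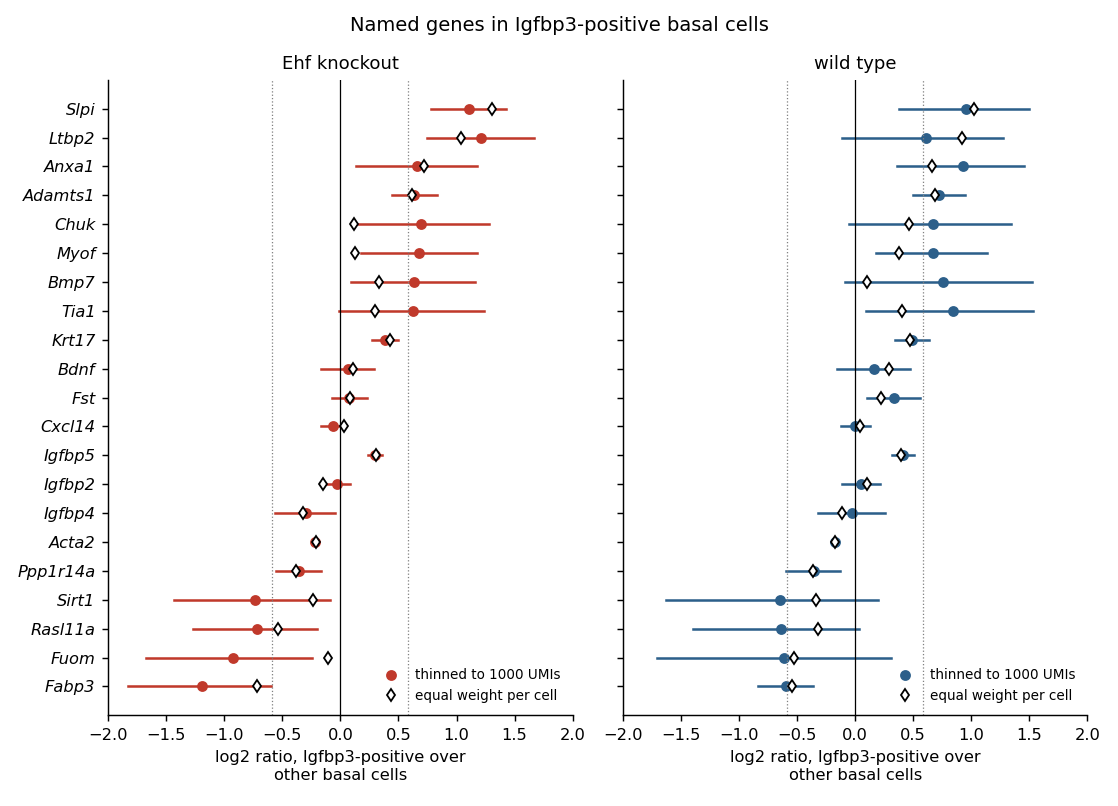
log2 ratio of Igfbp3-positive over other basal cells (x axis) for named genes (rows) in the knockout (left) and wild type (right) libraries; circles are thinned counts with 95% counting intervals, diamonds give each cell equal weight, and dotted lines mark 1.5-fold. Slpi, Ltbp2, Anxa1 and Adamts1 lie past the line by both measures in both libraries, whereas Chuk, Myof, Bmp7 and Tia1 do so by the circles alone.

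Of the 8 genes called lower, 4 were milk genes (Csn1s2a, Csn3, Glycam1 and Spp1) and a further one was Fabp3, a fatty acid binding protein of milk-secreting cells. Fabp3 averaged 19.6 CPM in Igfbp3-positive and 44.7 CPM in other knockout cells, and 243 and 367 CPM in the wild type library. In luminal cells it stood at 843 CPM in knockout and 5289 CPM in wild type cells. Of 11 tested milk protein genes, 10 were below 0 in both libraries, with a median log2 ratio of -0.88 in knockout and -0.49 in wild type cells, where 22.8% of all genes were below 0 in both. The size of this difference depended on the setting. With all UMIs the medians were -2.18 in knockout and -1.12 in wild type cells, and with the other cells weighted to the depth of the Igfbp3-positive ones -1.93 and -0.96. With cells left out whose luminal UMIs exceeded 10% of their basal and luminal UMIs, they were -0.42 and -0.26. The median share of milk protein UMIs per cell, Mfge8 left out, was 0.1% in both groups of knockout cells after thinning. In wild type cells it was 1% in Igfbp3-positive and 1.1% in other cells. The means were 0.13% and 0.23% in knockout and 1.62% and 2.28% in wild type cells. With all UMIs, among the other knockout cells, 1 cell held 1673 of 2881 Wap UMIs. The part of free RNA and of doublets in the difference of the milk genes was not tested.

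The remaining genes called lower were Sirt1, a deacetylase, Rasl11a, a Ras-like protein, and Fuom, an enzyme of fucose metabolism. By equal weight per cell Sirt1 had log2 ratios of -0.23 and -0.34, Rasl11a -0.54 and -0.32, and Fuom -0.11 and -0.53 in knockout and wild type cells, short of 1.5-fold.

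Contractile genes were lower together, each by a small amount. Of the 22 tested genes of the contractile and oxytocin response list, 18 were below 0 in both libraries, against 22.8% of all tested genes. The median log2 ratio was -0.20 in knockout and -0.14 in wild type cells, and 0 of the 22 passed 1.5-fold in both. Acta2, Myh11 and Mylk of this list are genes of the rule, and of the other 19 genes 15 were below 0 in both libraries. Acta2, the smooth muscle actin of myoepithelial cells, averaged 13237 CPM in Igfbp3-positive and 15436 CPM in other knockout cells, a log2 ratio of -0.22 (-0.25 to -0.20). In the wild type library it averaged 16840 CPM in Igfbp3-positive and 19033 CPM in other cells, a log2 ratio of -0.18 (-0.21 to -0.15). Ppp1r14a, an inhibitor of myosin phosphatase, had log2 ratios of -0.36 (-0.55 to -0.16) in knockout and -0.36 (-0.60 to -0.13) in wild type cells. Synpo2, an actin-binding protein, had -0.53 (-0.84 to -0.23) in knockout and -0.28 (-0.61 to 0.04) in wild type cells. Oxtr, the oxytocin receptor, did not follow them, at 0.07 in knockout and 0.04 in wild type cells.

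Within the IGF axis, Igfbp5, another secreted IGF-binding protein, averaged 2286 CPM in Igfbp3-positive and 1856 CPM in other knockout cells, a log2 ratio of 0.30 (0.24 to 0.36). In wild type cells it averaged 1618 CPM in Igfbp3-positive and 1219 CPM in other cells, a log2 ratio of 0.41 (0.31 to 0.50). Igfbp2, also an IGF-binding protein, had -0.03 (-0.15 to 0.08) in knockout and 0.05 (-0.12 to 0.21) in wild type cells. Igfbp4 had -0.30 (-0.56 to -0.04) in knockout and -0.03 (-0.32 to 0.26) in wild type cells. The receptor Igf1r had 0.26 (-0.05 to 0.56) in knockout and 0.24 (-0.15 to 0.61) in wild type cells, and the protease Pappa, which cleaves IGF-binding proteins, 0.11 (-0.23 to 0.44) and 0.16 (-0.66 to 0.90). Of the 10 tested genes of the axis other than Igfbp3, 3 were above 0 and 1 below 0 in both libraries, where 31.4% of all genes were above and 22.8% below, so the share above 0 was that of all genes. The medians were 0.08 in knockout and 0.11 in wild type cells, and over the other settings they ran between -0.075 and 0.16 in knockout and between -0.047 and 0.21 in wild type cells.

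Among 21 tested genes of TGF-beta, BMP and activin signalling, 9 were above 0 and 3 below 0 in both libraries, against 31.4% and 22.8% of all genes. Ltbp2 and Bmp7, described above, are in this list. The list medians were 0.14 in knockout and 0.15 in wild type cells. Fstl3, a secreted activin inhibitor, had a log2 ratio of 0.53 (0.10 to 0.95) in knockout and 0.22 (-0.31 to 0.71) in wild type cells. Tgfb3, a TGF-beta ligand, had -0.34 (-0.79 to 0.10) in knockout and -0.25 (-0.81 to 0.26) in wild type cells. Of 14 basal keratin and adhesion genes, 5 were above 0 and 2 below 0 in both, and of the 11 that are not genes of the rule, 3 and 2. Lgals7, a galectin of stratified epithelia, had 0.36 (0.23 to 0.48) in knockout and 0.11 (-0.03 to 0.24) in wild type cells, and Sfn, the 14-3-3 protein of keratinocytes, 0.34 (0.23 to 0.44) and 0.16 (-0.02 to 0.33).

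The most Igfbp3-rich cells were also set against cells with 0 Igfbp3 UMIs, with each cell given equal weight. This comparison was chosen after the data were seen. Its Igfbp3-rich cells are part of the same Igfbp3-positive cells, so it does not check the genes named above anew. Between cells with 3 or more Igfbp3 UMIs (766 knockout, 258 wild type) and cells with 0 (2752 knockout, 4275 wild type), 17 of 5374 genes were at least 1.5-fold higher in both libraries (0.316%) and 7 at least 1.5-fold lower (0.13%). Igfbp3 was not counted. Ltbp2 had log2 ratios of 1.43 in knockout and 1.51 in wild type cells. Slpi had 1.59 in knockout and 1.23 in wild type cells, and Anxa1 had 1.29 and 0.90, and Adamts1 0.84 and 1.11. Krt17 passed the fold here, at 0.65 in knockout and 0.61 in wild type cells. Other genes named above were nearer 0 in this comparison, among them Chuk at -0.035 and 0.075 and Sirt1 at -0.058 and -0.12.

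The other genes of this group have varied roles. Map1b, a microtubule-associated protein of neurons, had log2 ratios of 1.28 in knockout and 1.06 in wild type cells. Palmd, a membrane-associated protein, had 1.26 and 1.00. The transcription factor Creb5 had 0.82 and 1.21, and the calcium-activated cation channel Trpm4 0.80 and 1.16. The kinase Dclk1 had 0.68 and 1.15. Efhd2, a calcium-binding actin regulator, had 0.74 and 0.67. Pmepa1, a TGF-beta-induced membrane protein that dampens that pathway, had 0.65 and 0.93. Msn, which links actin to the membrane, had 0.68 and 0.62. Itpkc, an inositol trisphosphate kinase, had 0.60 and 0.79, the glycosyltransferase Galnt2 had 0.62 and 1.29, and the scaffold Tanc2 0.64 and 0.71, each in knockout and then wild type cells. Each held at least 22 full UMIs in the Igfbp3-rich cells of either library. With the cell of highest level left out of each group, Itpkc at 0.58 in knockout cells and Msn at 0.52 and Tanc2 at 0.50 in wild type cells fell short of 1.5-fold. The predicted gene Gm21149 completed the 17.

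Of the 7 genes that were lower, 4 were Csn3, Glycam1, Lalba and Fabp3, genes of milk secretion. The others were Ntf3, a neurotrophin, at -0.78 in knockout and -0.83 in wild type cells, Dmpk, a muscle kinase, at -0.69 and -1.18, and Cops7a, a subunit of the COP9 signalosome, at -0.60 and -0.68. Cops7a rested on 15 UMIs in the Igfbp3-rich wild type cells, and Lalba on 7 in the knockout ones. By thinned counts over all Igfbp3-positive cells, Cops7a had 0.43 (-0.33 to 1.12) in wild type cells, on the other side of 0. The contractile list was below 0 in both libraries for 21 of 22 genes, against 23.97% of all tested genes, with medians of -0.33 in knockout and -0.23 in wild type cells, and for 18 of the 19 that are not genes of the rule. Oxtr was the exception, at 0.04 in knockout and 0.07 in wild type cells. Ppp1r14a had -0.53 and -0.77, and Ckb, the brain creatine kinase, -0.66 and -0.34. In the keratin and adhesion list, 11 of 14 genes were above 0 in both libraries, against 35.9% of all tested genes. Krt14, Krt5 and Krt17, genes of the rule, are among the 11, and of the other 11 genes in the list 8 were above 0 in both.

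**Figure D3:**
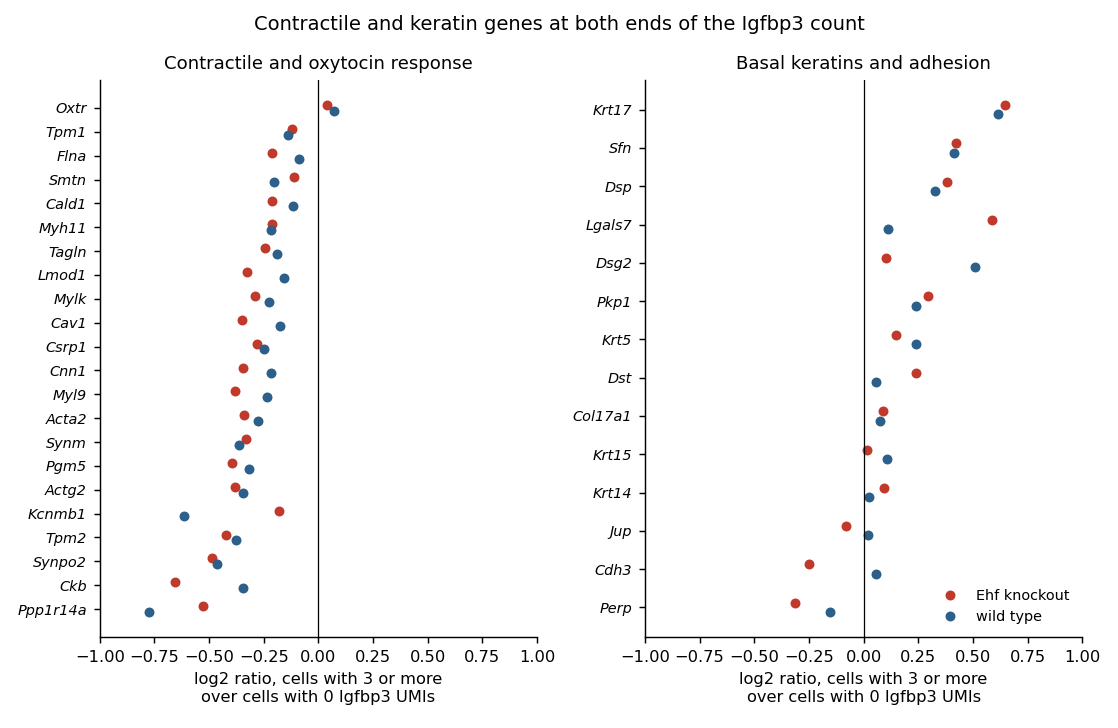
log2 ratio of cells with 3 or more over cells with 0 Igfbp3 UMIs (x axis), each cell with equal weight, for the tested genes of 2 lists (rows); each point is 1 library. Contractile genes lie left of 0 in both libraries except Oxtr, and Krt17 and Sfn lie to the right.

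Levels were then followed along the Igfbp3 count. At 0, 1, 2, 3 to 4 and 5 or more Igfbp3 UMIs, mean Ltbp2 was 21.7, 26.2, 33.6, 48.3 and 76.8 CPM in knockout cells, and 24.9, 27.8, 33.5, 63.0 and 99.4 CPM in wild type cells. Adamts1 was 157, 168, 201, 252 and 334 CPM in knockout cells, and 184, 196, 237, 329 and 639 CPM in wild type cells. Both genes thus climbed at every step in both libraries. They had been named for higher levels at 2 or more Igfbp3 UMIs in these same cells. A rise across that minimum therefore followed from the choice and is not separate support. Krt17 was 494, 519, 549, 705 and 894 CPM in knockout cells, and 505, 492, 649, 676 and 1111 CPM in wild type cells, so in wild type cells it was no higher at 1 UMI than at 0. Slpi was 44.6, 45.3, 81.5, 130 and 141 CPM in knockout cells. In wild type cells Slpi was 28.8, 30.0, 53.9, 34.2 and 185 CPM, without an even climb, and the last value rests on 26 UMIs in 57 cells.

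Acta2 went the other way at every step. It was 15549, 15007, 14572, 13401 and 10349 CPM in knockout cells, and 19165, 18460, 17536, 16311 and 14050 CPM in wild type cells. The summed level of the contractile list, of which 24 genes were in the files, was 42359 CPM at 0 and 29542 CPM at 5 or more Igfbp3 UMIs in knockout cells, and 54398 and 40450 CPM in wild type cells. Krt14 was 1918 CPM at 0 and 2089 CPM at 5 or more Igfbp3 UMIs in knockout cells, and 1766 and 2064 CPM in wild type cells. Cxcl14 was 744 and 811 CPM at these ends in knockout cells and 956 and 1040 CPM in wild type cells. Depth moved with the count as well: median UMIs per cell were 3417 at 0 and 5096 at 5 or more in knockout cells, and 1972 and 2855 in wild type cells. Its part in these levels was not tested beyond thinning and equal weighting, which remove depth from the level of a gene and not from the choice of cells.

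**Figure D4:**
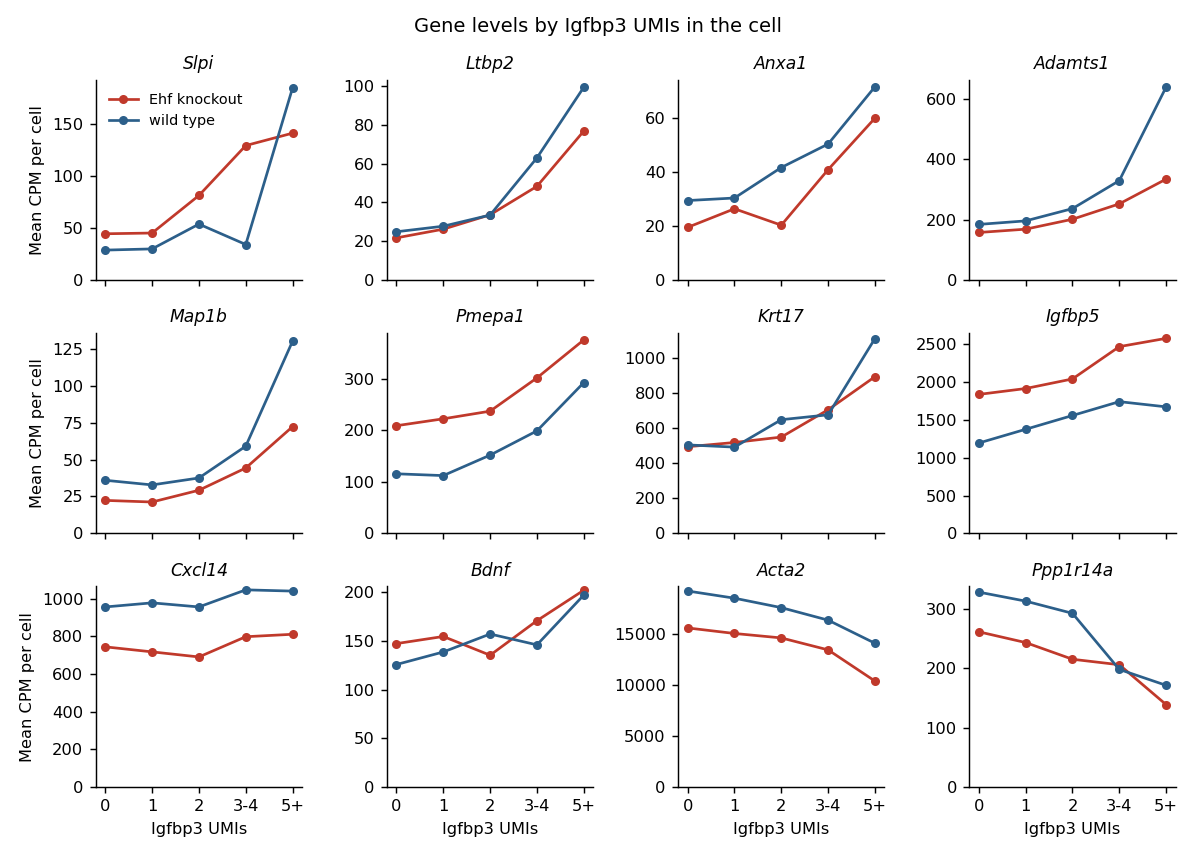
Mean CPM per cell (y axes, from 0) of 12 genes by the number of Igfbp3 UMIs in the cell (x axes), in knockout and wild type non-cycling basal cells, each cell with equal weight. Ltbp2, Adamts1 and Pmepa1 are highest and Acta2 and Ppp1r14a lowest at 5 or more UMIs in both libraries, while Cxcl14 is nearly level.

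Markers of other cell types were looked for in the Igfbp3-positive cells, since Igfbp3 is also made outside the epithelium. With all UMIs, the endothelial list of 12 genes summed to 11.2 CPM in Igfbp3-positive and 26.1 CPM in other knockout cells, and to 55.0 and 19.1 CPM in the wild type library. Of its defining genes, Pecam1 had 9 UMIs over 1377 knockout cells and 11 over 651 wild type cells, and Cdh5 had 7 and 24. The pericyte list of 12 genes summed to 48.8 CPM in Igfbp3-positive and 55.5 CPM in other knockout cells, and to 92.1 and 70.8 CPM in the wild type library. The adipocyte list of 7 genes summed to 47.8 CPM in Igfbp3-positive and 131 CPM in other knockout cells, and to 513 and 137 CPM in the wild type library, where Fabp4 gave 971 of its 998 UMIs. In the other wild type cells Fabp4 gave 1625 of 1902. Of the 971 Fabp4 UMIs, 607 lay in 1 cell, and 3 of the 7 genes had 0 UMIs in Igfbp3-positive wild type cells. The adipocyte sums thus describe mostly Fabp4. Against the other cells of their library, both the endothelial and the adipocyte sums were lower in Igfbp3-positive knockout cells. Both sums were higher in Igfbp3-positive wild type cells. Their part in the results was not tested. The pan-leukocyte gene Ptprc had 1 UMI in knockout and 0 in wild type Igfbp3-positive cells, and Cd3e had 0 in both. The other defining immune genes were present there, with 60 and 11 UMIs of Cd68, 20 and 4 of Lyz2 and 12 and 2 of Cd79a. Of the defining fibroblast genes, Lum had 5 and 0 UMIs, Pdgfra 9 and 4, Col1a1 18 and 1 and Col1a2 59 and 14, whereas Dcn had 2861 and 862. The other basal cells held Dcn too, with 7020 UMIs in 4006 knockout and 6645 in 5568 wild type cells. The summed fibroblast list of 12 genes was 524 CPM in Igfbp3-positive and 559 CPM in other knockout cells, and 638 and 733 CPM in the wild type library. Cells were then left out that held 2 or more UMIs of the defining fibroblast, pericyte, endothelial, Schwann and immune genes apart from Dcn. No adipocyte gene was among these. In this setting 1358 knockout and 641 wild type members stayed, and 7 of the 9 genes higher in both libraries still passed. Igfbp3, which passes by the rule itself, is among the 7.

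Knockout and wild type Igfbp3-positive cells were then set against each other, with the same ratio in the other basal cells beside it. The minimum of 2 Igfbp3 UMIs was applied at full depth, where knockout cells were deeper. After thinning, Igfbp3 averaged 755 CPM (709 to 802) in knockout and 1124 CPM (1044 to 1209) in wild type Igfbp3-positive cells. The compared cells were thus unlike in Igfbp3 level, and the part of this in the ratios was not tested. Of the 5378 genes, 528 (9.82%) were at least 1.5-fold higher and 478 (8.89%) at least 1.5-fold lower in the knockout Igfbp3-positive cells, against 4.76% and 3.87% in the more numerous other basal cells. With all UMIs, Krt17, Ltbp2, Adamts1 and Anxa1 differed by less than 1.5-fold between genotypes. By thinned counts, Ltbp2 had 0.65 (-0.05 to 1.41) and Anxa1 -0.61 (-1.25 to 0.05), both past 1.5-fold with intervals that spanned 0. With all UMIs, Krt17 was at 643 CPM in knockout and 619 CPM in wild type Igfbp3-positive cells, a log2 ratio of 0.05 (-0.04 to 0.15). Ltbp2 was at 46.0 CPM in knockout and 45.8 CPM in wild type Igfbp3-positive cells, a log2 ratio of 0.01 (-0.33 to 0.36). Adamts1 had -0.23 (-0.37 to -0.09) and Anxa1 -0.44 (-0.81 to -0.07). Slpi was higher in knockout cells, with 0.63 (0.32 to 0.95), and Igfbp5 likewise with 0.57 (0.51 to 0.62). In the other basal cells Slpi had 0.75 (0.56 to 0.94) and Igfbp5 0.63 (0.61 to 0.66), so both were higher in knockout cells there as well.

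The 10 highest knockout over wild type ratios named by the rule came from few wild type UMIs and are given with all UMIs. Ppp1r14b, an inhibitor of protein phosphatase 1, was at 93.4 CPM in knockout and 21.1 CPM in wild type Igfbp3-positive cells, a log2 ratio of 2.15 (1.69 to 2.64). In other basal cells its ratio was 1.80 (1.63 to 1.98). Mphosph10, Rrp15, Tsr1 and Nol8 are ribosome assembly factors. Mphosph10 had 1.43 (0.85 to 2.07), against 1.04 in the other basal cells. Rrp15 had 1.3 (0.93 to 1.70) against 1.02, Tsr1 1.11 (0.59 to 1.68) against 0.81, and Nol8 0.84 (0.29 to 1.43) against 0.69. A separate list held 12 ribosomal and translation factors. By thinned counts, 3 were at least 1.5-fold higher in knockout than in wild type Igfbp3-positive cells, against 9.82% of all tested genes. In the other basal cells 5 were, against 4.76% of all tested genes. Rap1gap, which switches off Rap1, had 0.90 (0.41 to 1.42), Akt1s1, an mTOR partner, 0.86 (0.30 to 1.46), and Ncoa5, a nuclear receptor coactivator, 0.64 (0.12 to 1.20). Pnpt1, a mitochondrial ribonuclease, had 1.66 after thinning and -0.09 (-0.55 to 0.41) with all UMIs, so its place among them came from the draw. Pappa was at 85.0 CPM in knockout and 22.1 CPM in wild type Igfbp3-positive cells, a log2 ratio of 1.94 (1.5 to 2.42), against 1.60 (1.42 to 1.78) in the other basal cells.

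Cd74, the invariant chain of antigen presentation, had 1.61 (1.15 to 2.11) in Igfbp3-positive and -0.94 (-1.07 to -0.81) in other basal cells. In other wild type basal cells, 182 of 5568 cells held its 1317 UMIs, 114 of them in 1 cell. The summed immune list of 14 genes was 87.8 CPM in Igfbp3-positive and 75.9 CPM in other knockout cells, and 35.0 and 186 CPM in the wild type library.

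The 10 lowest ratios named by the rule leave out milk protein genes, of which Wap had -6.67 and Spp1 -6.66 with all UMIs. By the same measure, Lao1, an amino acid oxidase of milk, had -6.12 (-7.01 to -5.34) in Igfbp3-positive cells. Btn1a1, the butyrophilin of milk fat globules, had -4.26 (-4.93 to -3.65), Cd36, a fatty acid transporter, -4.11 (-4.66 to -3.60), Fabp3 -3.88 (-4.12 to -3.64), lipoprotein lipase Lpl -3.86 (-4.40 to -3.35) and the desaturase Scd1 -2.19 (-2.47 to -1.92). In the other basal cells Lao1 had -4.76, Btn1a1 -3.94, Cd36 -1.86, Fabp3 -3.44, Lpl -3.89 and Scd1 -2.32. Cd36 lay in few Igfbp3-positive cells. In the knockout library 1 cell held 24 of its 38 UMIs there. In the wild type library 38 cells held its 170 UMIs, 51 of them in 1 cell. After thinning, Lao1 was at 75.3 CPM in Igfbp3-positive and 1377 CPM in luminal wild type cells, and Fabp3 at 243 and 5289 CPM. The part of free RNA from milk-secreting cells in these ratios was not tested. Among the other named genes, Col5a2, a fibrillar collagen, had -1.22 (-1.62 to -0.82) and Rasl12, a Ras-like protein, -1.66 (-2.14 to -1.17). Plin4, a lipid droplet protein, had -0.82 (-1.26 to -0.37). The cause of these ratios was not tested either. After thinning, Col5a2 and Plin4 were each at 0.501 CPM and Rasl12 at 0 in wild type luminal cells. In other basal cells the ratios were -1.25 for Col5a2, -0.95 for Rasl12 and -0.57 for Plin4. Fabp4, also among the 10, had -3.50 in Igfbp3-positive and 0.08 in other basal cells, from UMIs in few cells.

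**Figure D5:**
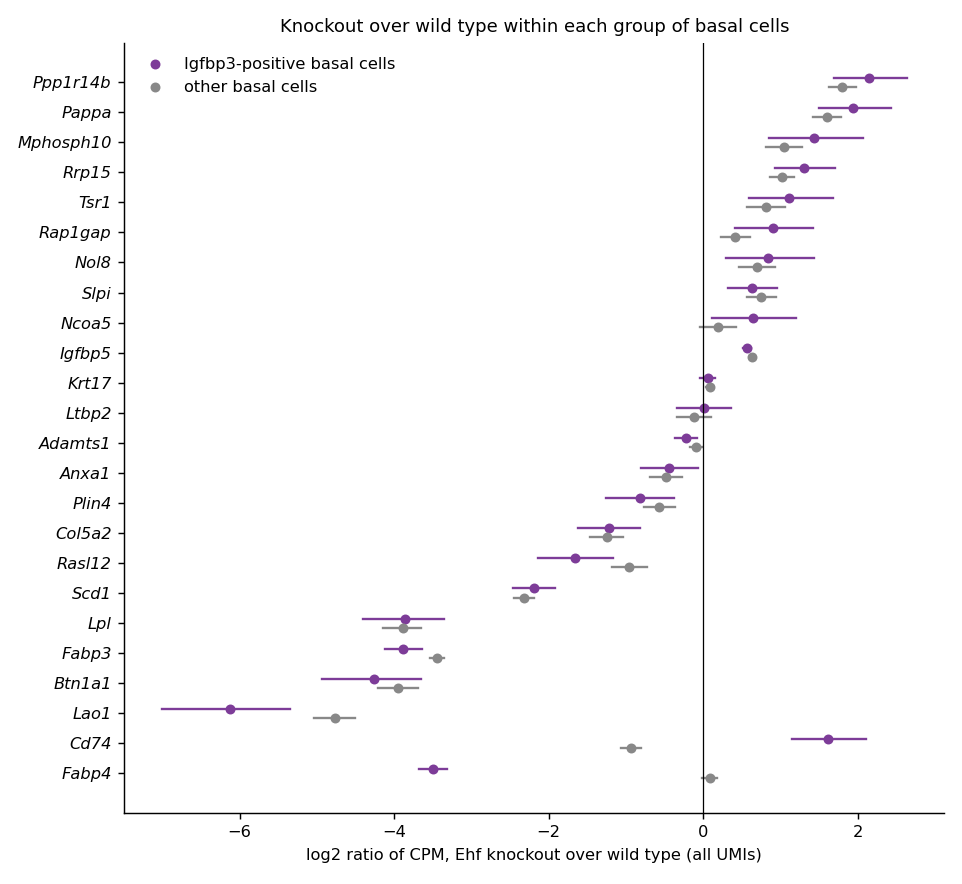
log2 ratio of knockout over wild type CPM with all UMIs (x axis) for named genes (rows), in Igfbp3-positive (purple) and other (grey) basal cells, with 95% counting intervals. Cd74 at 1.61 and -0.94, and Fabp4 at -3.50 and 0.08, differ most between Igfbp3-positive and other cells among the named genes.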

How the data were processed

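Single-cell RNA of 1 Ehf knockout and 1 wild type library was used. The authors deposited unnormalized counts, whole UMI numbers for each gene in each barcode; every barcode in the files had at least 500 UMIs. Seurat 4.0.4 and the build GRCm38 (mm10) are named per the submitters' processing notes; the labels name no aligner. The files hold 27179 genes, 25865 of them with a symbol; 25275 gene IDs matched RefSeq GRCm38.p6, which also gave the 15 mitochondrial genes. Genes without a symbol held 1.74% of knockout and 1.36% of wild type UMIs and named no gene in the text.

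The members and the 35 gene lists were chosen with earlier results of these data known. Each cell was thinned without replacement to 1000 UMIs (seed 1), UMIs were summed per library and group, and levels are CPM. A gene was tested where its mean over the 4 groups was at least 20 CPM. Intervals are exact (conditional binomial for ratios, Poisson for levels, Clopper-Pearson for shares) at 95% and cover counting error only. A level of 0 was set to 3 counts in ratios. Called means at least 1.5-fold, a rule of size and not a test.

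Named genes were the 15 highest and 15 lowest called alike in both libraries, ranked by the smaller ratio, with at least 10 UMIs in the higher group, and the 10 highest and 10 lowest knockout over wild type with at least 20 over both libraries. Predicted, mitochondrial, ribosomal protein, haemoglobin, immunoglobulin, milk protein and rule genes were left out of that ranking. Up to 4 genes of each list, the given markers and rule genes were added. Genes named only for the contrast of 3 or more against 0 Igfbp3 UMIs were chosen after their values were seen, as were the called milk genes and Oxtr. No doublet caller was run; cells with luminal UMIs and the deepest cells were left out as alternatives. Results were recomputed under 14 other settings, and 3 more chosen after seeing the data. Thinning and ratios were tested on simulated data. Thinned counts called 45 of 50 genes set 2-fold higher and 50 of 50 set 3-fold higher. Fewer lower genes were called, 38 of 50 set 2-fold lower and 35 of 50 set 3-fold lower. Of 5075 unchanged genes, 1 was called higher and 1 lower. Python 3.11.15, numpy 2.4.6 and scipy 1.17.1 were used.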

Additional observations from a re-analysis of the deposited data

Results flagged for a closer look

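Fabp4, a fatty acid binding protein of adipocytes and endothelial cells, pointed in opposite directions in the 2 libraries. Its log2 ratio of Igfbp3-positive over other basal cells was -1.07 (-1.63 to -0.55) in knockout and 1.69 (1.39 to 1.99) in wild type cells. Its UMIs lay in few cells. In Igfbp3-positive cells, 1 cell held 303 of 333 Fabp4 UMIs in the knockout library and 1 cell held 607 of 971 in the wild type library. With the cell of highest level left out of each group and equal weight per cell, the log2 ratios were -3.53 in knockout and 1.36 in wild type cells. The difference between the libraries was not tested, since there is 1 library per genotype.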

How the results depend on the processing

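No paired analysis was possible because there is 1 library per genotype. Of 2380 gene and list values recomputed under other settings, 86 changed sign, 18 of them values past 1.5-fold in the reported setting. Slpi ranged over log2 ratios of 0.70 to 1.61 in knockout and 0.33 to 1.26 in wild type cells, Ltbp2 0.72 to 1.5 and 0.34 to 1.3, Anxa1 0.52 to 1.19 and 0.42 to 1.42, Adamts1 0.40 to 0.93 and 0.31 to 0.97, the contractile median -0.34 to -0.13 and -0.24 to -0.06, and the milk protein median -2.18 to -0.34 and -1.15 to -0.26.

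The counts of genes, 9 higher and 8 lower in both libraries and 528 higher and 478 lower in knockout cells, depended on the setting. Without thinning they were 4, 16, 297 and 251. With at least 1 Igfbp3 UMI they were 3, 2, 298 and 267, with shares of 48.9% in knockout and 31.3% in wild type cells. With at least 3 UMIs 41 were higher and 19 lower, with shares of 14.2% and 4.15%. With the minimum applied after thinning to 2000 UMIs 18 were higher and 14 lower, with shares of 11.5% and 7.85%. With no minimum level the 4 counts were 406, 240, 2001 and 2508. With cells carrying other cell type markers left out, Dcn among them, 34 were higher, 15 lower and 722 lower in knockout cells, and the knockout share was 23.9%. That setting kept 666 of 1377 knockout and 406 of 651 wild type members. With Dcn not counted, 8 were higher and 7 lower. Another random draw gave 14 higher, of which 5 were among the 9, Igfbp3 included. Weighting the other cells to the members' depth gave 24 lower. Leaving out cells with a luminal share above 10%, or the deepest 2%, gave 4 lower each. Equal weight per cell gave 4 lower in both libraries, and 291 higher and 269 lower in knockout cells.

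Sign changes of values past 1.5-fold in the reported setting were as follows, for Igfbp3-positive over other cells. Chuk in knockout cells had -0.22 at 2000 UMIs, -0.43 in another draw and -0.12 with the minimum after thinning. Myof in knockout cells had -0.081 without thinning and -0.32 in another draw, where Fuom had 0.19. With the minimum after thinning, Bmp7 had -0.24 in knockout cells, and Fabp4 -0.80, Rasl11a 0.21 and Tia1 -0.17 in wild type cells. Fabp4 in knockout cells had 0.39 with at least 10 basal UMIs. With other cell type markers left out, wild type Bmp7 had -0.086 and Cd74 0.84, or 0.44 for Cd74 with Dcn not counted. The knockout over wild type ratio of Pnpt1 was -0.087 without thinning, -0.033 in another draw, -0.21 with the minimum after thinning and -0.035 with equal weight. The cause of these changes was not tested. Low counts limit single values: the thinned wild type ratio of Ltbp2 rests on 22 UMIs in Igfbp3-positive cells.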

Other observations

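Serpinb5, the serpin maspin of myoepithelial cells, was somewhat higher in Igfbp3-positive cells. It averaged 86.4 CPM in Igfbp3-positive and 65.2 CPM in other knockout cells, a log2 ratio of 0.41 (0.08 to 0.73), and 82.9 and 57.8 CPM in the wild type library, a log2 ratio of 0.52 (0.08 to 0.94). Vegfa, the angiogenic growth factor, had 0.35 (0.10 to 0.59) in knockout and 0.30 (-0.10 to 0.67) in wild type cells. Ier2, an immediate early gene, was lower, with -0.22 (-0.38 to -0.07) in knockout and -0.29 (-0.50 to -0.10) in wild type cells. Of 23 tested immediate early and stress genes, 6 were above 0 and 6 below 0 in both libraries, where 31.4% of all genes were above and 22.8% below. Of 10 tested genes of semaphorin, ephrin and guidance signalling, 6 were above 0 and 2 below 0 in both, and of 10 tested YAP and mechanical target genes 4 were above and 4 below.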
